A study of Mus musculus with 22 samples.

Results

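The genes of oxidative phosphorylation were followed in CD11b+ cells of the mouse brain in a model of hypoxic-ischemic encephalopathy (HIE), a brain injury around birth. The members were the protein-coding genes whose symbol begins with Ndufa, Ndufb, Ndufc, Ndufs, Ndufv, Uqcr, Cox4 to Cox8 or Atp5, together with Sdha to Sdhd, Cyc1 and the protein-coding genes of the mitochondrial genome. Of 56691 listed genes, 112 fitted these symbols and 104 reached a mean of 1 CPM over all libraries, CPM being counts scaled to a common library size. These were 91 nuclear genes and 13 mitochondrial genes. All mice were CF-1 wildtype, an outbred stock, and no group carried an engineered allele. Whole brains were dissociated and cells were enriched on magnetic beads that bind CD11b, an integrin chain on the surface of microglia and of myeloid cells in general. In the HIE model the dam received lipopolysaccharide, a bacterial cell wall component, late in pregnancy and the pups were exposed to hypoxia after birth, whereas controls received saline. There were 5 groups of 4 animals: HIE on P7 (postnatal day 7), early controls, HIE on P14, controls on P14, and a group labelled hypoxia on P14, for which the study's methods give no treatment details. The early controls carry the day labels P8, P9, P10 and P11, although the protocol gives P7. The replicate numbers used here only name the animals.

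Oxidative phosphorylation takes place in the inner mitochondrial membrane. Complexes I (NADH dehydrogenase), III (cytochrome bc1) and IV (cytochrome c oxidase) pump protons while electrons pass to oxygen, complex II (succinate dehydrogenase) feeds in electrons without pumping, and complex V (ATP synthase) uses the proton gradient to make ATP. Most subunits are encoded in the nucleus and imported, while core subunits of complexes I, III, IV and V are encoded in the mitochondrial genome, so both genomes must supply matching parts. Microglia, the resident macrophages of the brain, can draw on both oxidative phosphorylation and glycolysis, and myeloid cells shift between them when activated.

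The nuclear members were 37 subunits of complex I, 4 of complex II, 9 of complex III, 15 of complex IV, 18 of complex V and 8 assembly factors of complex I with symbols beginning with Ndufaf. Ndufa4 and its paralogue Ndufa4l2 were counted with complex IV, where the Ndufa4 protein sits, and Atp5if1, the inhibitor of ATP synthase, with complex V. The mitochondrial members were 7 subunits of complex I, 1 of complex III, 3 of complex IV and 2 of complex V. The 8 genes under the minimum were Ndufb11b, Cox5b-ps, Cox6a2, Cox7a1, Cox7b2, Cox8b, Cox8c and a second gene identifier named Atp5po. Cox6a2, Cox7a1 and Cox8b are the isoforms of heart and skeletal muscle, Cox7b2 and Cox8c are known from testis, and their mean levels were 0.000648 to 0.612 CPM.

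The 22 libraries came from 20 animals, and the counts of both libraries of an animal were summed. Early libraries held 70191584 to 83469067 counts and P14 libraries 29751540 to 46404123, and early and P14 animals stand in separate count tables, so that day and table cannot be told apart. Of 11 microglial markers, 10 were found and none of these was at 0 in every animal, with summed levels of 13169.5 to 29990 CPM in 18 animals. The other animals were early controls 1 and 2, whose names begin with P6H63, with 2072 and 1350 CPM. They also had the highest sums of astrocyte markers (4066 and 5030 CPM against 1319 to 1997 CPM in the other early animals) and endothelial markers (1620 and 1326 CPM against 490 to 714 CPM). Choroid plexus markers were higher in every early control (3352, 8809, 3747 and 4212 CPM) than in every P7 HIE animal (1134 to 2124 CPM). Early control 4 stood apart in another way, with 2917 CPM of the mitochondrial ribosomal RNA mt-Rnr1 against 237 to 499 CPM in the other early animals. P7 HIE animal 1 is labelled male but had 2316 CPM of Xist and 0.0263 CPM of Y-linked genes, and early control 4, labelled female, had 0.235 CPM of Xist and 0 CPM of Y-linked genes. Treatment, day label and name prefix cannot be told apart in the early animals (P7 with N5 and N8 for HIE, P8 to P11 with P6H63 and P6H55 for controls). What the prefixes stand for is not given in the sources used here. All P7 HIE animals are labelled male, while early controls 1 and 3 are labelled male and 2 and 4 female. Each P14 group holds animals of both sex labels. The animals of a group may share litters, and p-values measure only the spread between these animals. In bulk samples, fewer cells of a type and less RNA per cell cannot be told apart.

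The mitochondrial genome has been copied into nuclear chromosomes, and such copies decide how many counts its genes keep. In the GRCm39 build, 7 copies of 7 mitochondrial genes lie side by side at chr1:24650616-24655278. Over its 684 bases mt-Co2, a core subunit of complex IV, and the chromosome 1 copy Gm28661 differed at 0 positions, and over 348 bases mt-Nd3, a subunit of complex I, and the copy Gm28438 differed at 1. The first 90 bases of both genes and their copies are shown because reads from them can hardly be assigned to one place. The capitals mark the bases at which mt-Co2 differs from Gm13341, a further copy on chromosome 2, and mt-Nd3 from Gm28438. The sequences are mt-Co2 at chrM:7013-7102 (plus strand), Gm28661 at chr1:24654557-24654646 (minus strand), Gm13341 at chr2:22477885-22477974 (minus strand), mt-Nd3 at chrM:9459-9548 (plus strand) and Gm28438 at chr1:24652111-24652200 (minus strand), each from 5′ to 3′ in the sense of the mitochondrial gene.
mt-Co2: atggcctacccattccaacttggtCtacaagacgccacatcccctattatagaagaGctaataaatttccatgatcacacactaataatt
Gm28661: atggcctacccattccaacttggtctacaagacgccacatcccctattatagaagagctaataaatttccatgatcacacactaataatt
Gm13341: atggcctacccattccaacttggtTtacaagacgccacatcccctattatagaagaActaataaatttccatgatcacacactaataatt
mt-Nd3: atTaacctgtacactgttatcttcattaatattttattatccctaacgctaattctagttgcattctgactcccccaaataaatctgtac
Gm28438: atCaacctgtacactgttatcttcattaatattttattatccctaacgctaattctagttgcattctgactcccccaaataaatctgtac

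The deposited counts were split between such twins by RSEM, and the split was uneven. Of the counts of mt-Co2 and its copies together, mt-Co2 kept 6.91 to 28.7% over the 20 animals, and mt-Co3, another core subunit of complex IV, kept 16.1 to 32.9%. For mt-Atp6, the proton channel subunit of complex V, both N5 animals kept 16.7% each, while the other early animals kept 42.6 to 47.5% and the P14 animals 24.2 to 42.3%. The share of mt-Nd3 moved with the count table: 14.8 to 38.8% in 7 early animals, 72.5% in early control 4 and 70.8 to 90.7% in the P14 animals. By contrast mt-Co1, the catalytic subunit of complex IV, kept 91.1 to 99.1% and mt-Nd4, a proton-pumping subunit of complex I, 88.3 to 99.9%. Each result on a mitochondrial gene was therefore also computed with the counts of its copies added, a step added after the data were seen. Among nuclear members, the retrocopy Ndufb4c held 52.3% of the counts it shared with Ndufb4, a subunit of complex I. Gm6969 held 20.3% of those shared with Cox7a2l, a factor for respiratory supercomplexes, and Ndufa12-ps 11.4% of those shared with Ndufa12, a subunit of complex I. Copies of nuclear members were not added, so values of Ndufb4, Cox7a2l and Ndufa12 are uncertain.

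**Figure D1:**
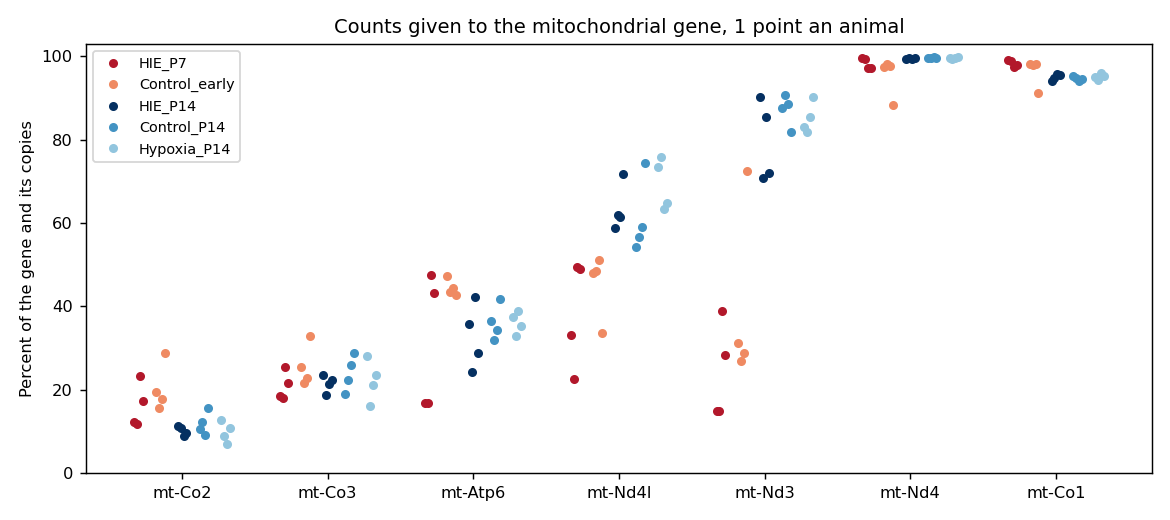
Share of counts (percent) that each mitochondrial gene kept out of the counts of the gene and its nuclear copies together, by animal and group. The shares of mt-Co1 and mt-Nd4 lie at or above 88.3% in every animal, those of mt-Co2 at or below 28.7%, and those of mt-Nd3 lie between 70.8 and 90.7% on P14.

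Per length of transcript, mitochondrial genes were far above nuclear ones. The mean level over all animals had a median of 717 CPM per kilobase over the 13 mitochondrial genes and 28.2 CPM per kilobase over the 91 nuclear genes. The highest mitochondrial level was that of mt-Co1 with 5175 CPM per kilobase, followed by mt-Cytb, the core of complex III, with 1506. With copies added, the other core subunits of complex IV came next to mt-Co1 (5400 CPM per kilobase), with 4901 for mt-Co3 and 3492 for mt-Co2. The lowest mitochondrial levels were those of mt-Nd4l (123 CPM per kilobase as deposited) and of mt-Nd6 (151), both subunits of complex I and the latter the only protein-coding gene on its strand. Among nuclear subunits the median was highest for complex IV (71.5 CPM per kilobase) and complex V (44.5), followed by complex III (30.2), complex II (27.5) and complex I (21.7). The highest nuclear levels were 219 CPM per kilobase for Atp5f1b, the catalytic beta subunit of ATP synthase, and 196 for Cox4i1, the regulatory subunit IV of cytochrome c oxidase. The assembly factors, which build complex I but do not stay in it, had a median of 3.20 CPM per kilobase.

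The mitochondrial genes together took 1.16 to 2.20% of all counts and the nuclear genes 0.323 to 0.590%. For mitochondrial genes the shares were 1.43, 1.62, 1.71 and 1.45% in P7 HIE, 1.63, 1.65, 1.62 and 2.20% in early controls, 1.48, 1.18, 1.37 and 1.21% in P14 HIE, 1.86, 1.32, 1.74 and 1.38% in P14 controls, and 1.16, 1.48, 1.51 and 1.47% in P14 hypoxia. The ranges of treated and control groups overlapped on both days, and early control 4 was highest. To set both genomes side by side, the mean log2 CPM over the nuclear members was subtracted from that over the mitochondrial members in each animal. This difference was 3.60, 3.81, 4.17 and 3.71 in P7 HIE and 3.59, 3.46, 3.95 and 4.88 in early controls, with overlapping ranges and the highest value again in early control 4. On P14 it was 3.75, 3.53, 4.01 and 3.93 in HIE, 4.17, 3.97, 4.15 and 4.12 in controls, and 3.88, 3.79, 4.16 and 3.96 in hypoxia. The HIE mean of 3.81 ± 0.21 (SD, n = 4) lay 0.30 below the control mean of 4.10 ± 0.093, with 1 HIE animal (4.01) inside the control range. The hypoxia mean was 3.95 ± 0.16, with overlap with both. On P14 the animal names begin with P4H or P6H, and within P4H the HIE values were 3.75 and 3.53 against 4.17 and 4.15 in controls, while within P6H they were 4.01 and 3.93 against 3.97 and 4.12. The 0.30 difference thus came mainly from the P4H animals. Among these, the HIE animals are named P4H1 and the controls P4H4, so treatment and full name prefix cannot be told apart there. With copies added, the P14 HIE and control means were 4.44 ± 0.19 and 4.69 ± 0.11. No p-value is given for these sums over chosen members.

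**Figure D2:**
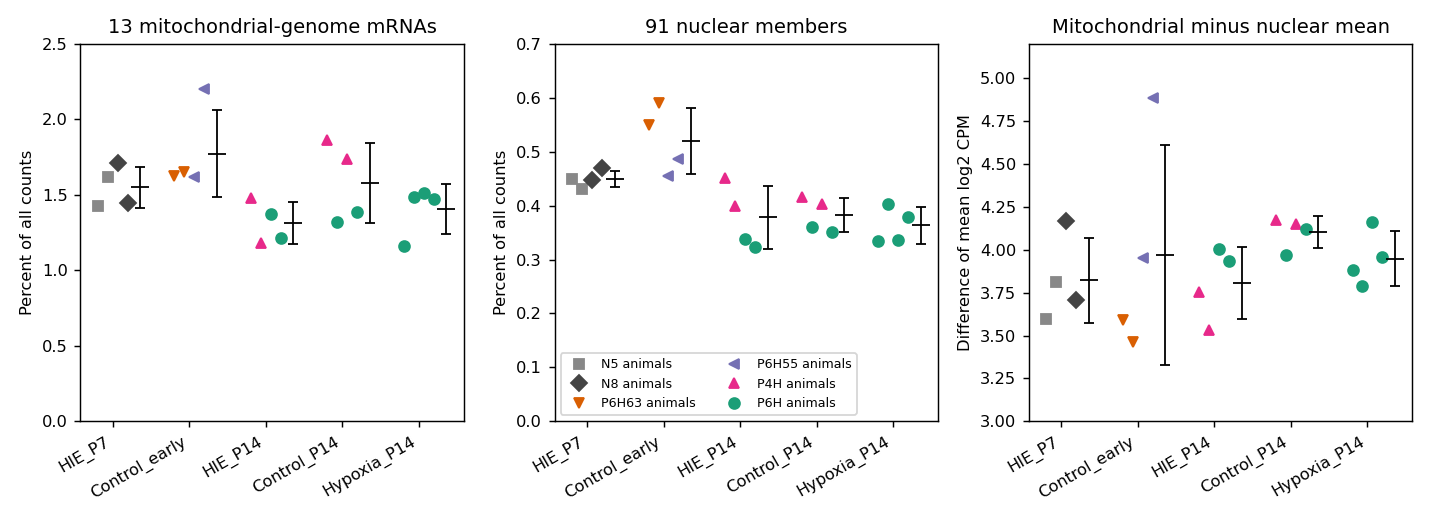
Summed share of counts (percent) of the mitochondrial genes and of the nuclear genes, and mitochondrial minus nuclear mean log2 CPM, for each animal by group. Points are animals with symbols for the name prefix and bars are means ± SD of 4 animals; early control 4 is highest in the mitochondrial share (2.20%) and in the difference (4.88), and in HIE and controls of P14 the P4H animals hold higher nuclear shares than the P6H animals.

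HIE and early control animals were compared first, which asks how the genes stand shortly after the hypoxia. The most shifted nuclear members were lower in HIE and were alternative isoforms known from oxygen-poor or specialised cells. Ndufa4l2, a paralogue of Ndufa4 that is known to rise under low oxygen, had 4.65, 4.64, 3.85 and 5.60 CPM in P7 HIE and 16.4, 13.1, 6.08 and 5.07 CPM in early controls. Cox4i2, the isoform of subunit IV known for oxygen sensing, had 1.26, 1.31, 1.14 and 1.96 CPM against 3.90, 3.32, 1.60 and 1.49 CPM. Cox6b2, the testis isoform of subunit VIb, had 2.71, 3.22, 3.62 and 3.80 CPM against 7.66, 13, 4.31 and 3.43 CPM. In each of these the high controls were animals 1 and 2, which held the most astrocyte and endothelial and the least microglial marker RNA, while controls 3 and 4 lay near or inside the HIE range. The log2 fold changes were -1.12 (SE 0.37) for Ndufa4l2, -0.87 (SE 0.37) for Cox4i2 and -1.10 (SE 0.40) for Cox6b2, with edgeR quasi-likelihood adjusted p-values of 0.15, 0.18 and 0.15. The part of the other cell types in these values was not tested.

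No member passed an adjusted p of 0.05 in the edgeR quasi-likelihood test between P7 HIE and early controls, where 15 of 22517 genes did (0.0666%). At an unadjusted p under 0.05 there were 11 of 104 members and 6143 genes (27.3%), and DESeq2 called 3 members among 3024 genes (13.4%), namely Sdhb and Atp5mc2 as higher and Ndufa4l2 as lower. The median log2 fold change was -0.09 over nuclear and -0.29 over mitochondrial members, beside -0.08 over all genes tested. By complex, all 4 subunits of complex II were positive (median 0.13), while complex I had 9 of 37 positive (median -0.13) and the assembly factors 0 of 8 (median -0.15). Of all members, Ndufs1 and Sdhb were higher in every HIE animal than in every control (11.8% of genes with at least 1 CPM were) and Ndufb10 was lower (7.97%). Sdhb, the iron-sulphur subunit of complex II, had 44.7, 47.7, 48.1 and 46.8 CPM in HIE against 38.7, 39.0, 42.4 and 43.1 CPM, which gave 0.19 on the log2 scale (SE 0.079, edgeR adjusted p = 0.17). Ndufb10, an accessory subunit of complex I, had 20.5, 19.8, 22.1 and 22.1 CPM against 25.6, 30.6, 22.1 and 33.1 CPM, which gave -0.41 on the log2 scale (SE 0.14, edgeR adjusted p = 0.15).

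The mitochondrial genes were below 0 in 12 of 13 cases in this early comparison, and this rested on 1 control. mt-Nd6 had 39.1, 46.6, 68.2 and 55.4 CPM in P7 HIE and 57.0, 50.4, 59.8 and 359.9 CPM in early controls, where only control 4 lay outside the HIE range. Its log2 fold change was -1.35 (SE 0.67, adjusted p = 0.22, edgeR). Without early control 4 the median over mitochondrial members was 0.05, with 9 of 13 positive. Adding the copies gave a median of -0.09. The P6H63 and P6H55 controls pulled the comparison apart: without the P6H55 controls 38 members (36.5%) were called, 20 of them positive, beside 13904 genes (58.5%), and without the P6H63 controls 0 members were called, beside 26 genes (0.112%). Without early control 3 alone, 5 members (4.81%) were called, beside 5588 genes (24.2%).

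**Figure D3:**
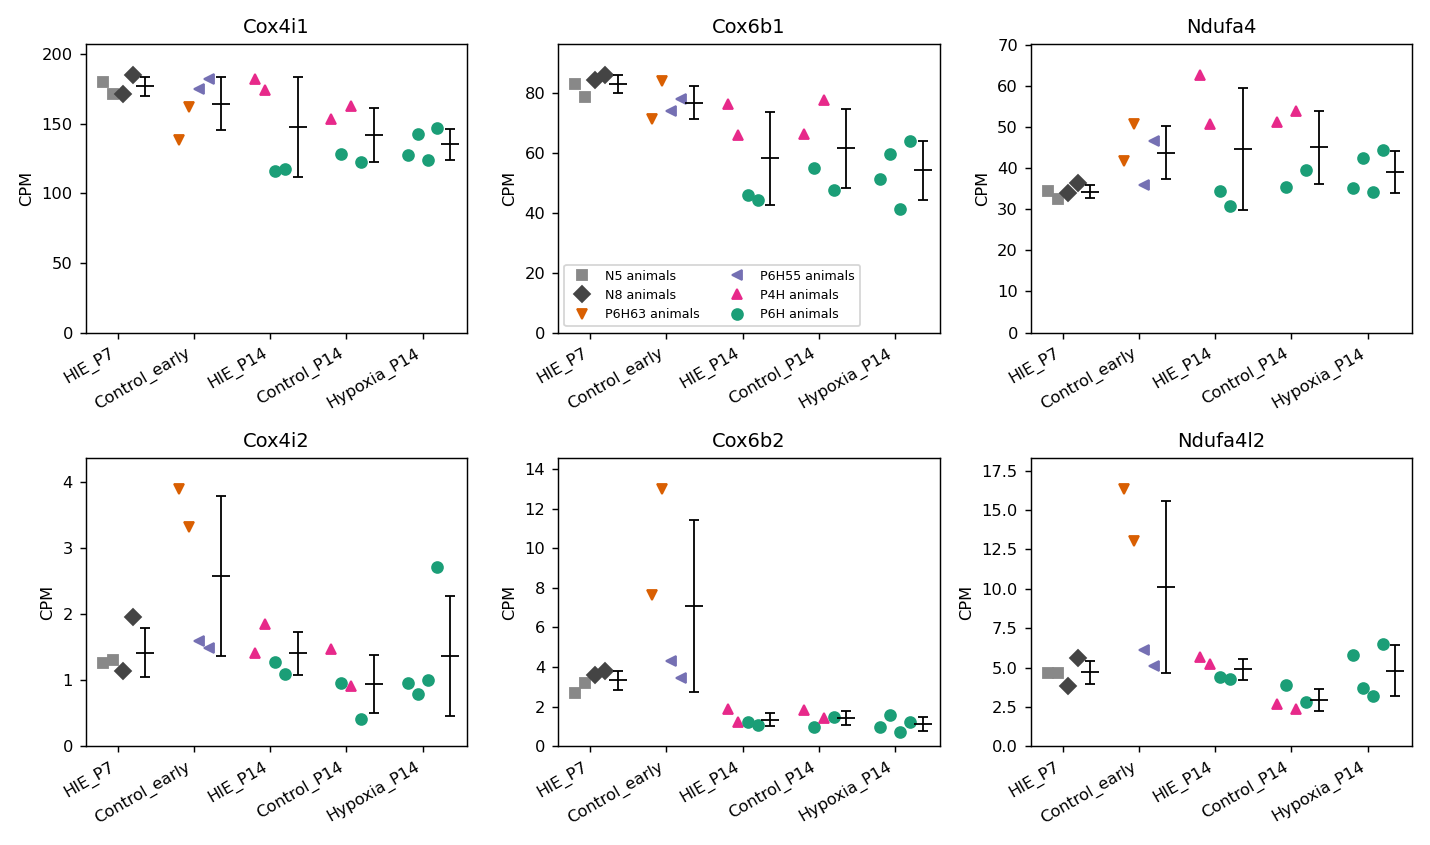
Level in CPM (linear axis) of the common isoforms Cox4i1, Cox6b1 and Ndufa4 and their alternatives Cox4i2, Cox6b2 and Ndufa4l2 for each animal by group. Early controls 1 and 2 hold the highest levels of all 3 alternative isoforms (16.4 and 13.1 CPM for Ndufa4l2), and on P14 each HIE animal lies above each control for Ndufa4l2.

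The same comparison was made on P14. Ndufa4l2 was now on the other side: 5.65, 5.23, 4.39 and 4.25 CPM in HIE, 2.68, 3.91, 2.36 and 2.82 CPM in controls, and 5.80, 3.72, 3.19 and 6.51 CPM in hypoxia. Each HIE animal was above each control, and the hypoxia animals overlapped the highest control. The log2 fold change was 0.71 (SE 0.24, adjusted p = 0.40, edgeR) for HIE and 0.68 (SE 0.24, adjusted p = 0.42, edgeR) for hypoxia, with the same controls in both. Endothelial marker sums were 655 to 1082 CPM in HIE, 431 to 737 CPM in controls and 650 to 1088 CPM in hypoxia, and their part in this value was not tested. Cox4i2 had 1.41, 1.85, 1.27 and 1.09 CPM in HIE against 1.48, 0.964, 0.912 and 0.416 CPM in controls, with overlap (log2 fold change 0.55, SE 0.43, adjusted p = 0.75, edgeR).

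All 13 mitochondrial genes were below 0 between P14 HIE and controls, with a median log2 fold change of -0.27 beside 0.02 over nuclear members and 0.01 over all genes. mt-Nd5, a proton-pumping subunit of complex I, had 396, 367, 355 and 395 CPM in HIE and 497, 416, 519.9 and 399 CPM in controls, so that each HIE animal lay below each control, the nearest pair by a few CPM. Its log2 fold change was -0.30 (SE 0.13, adjusted p = 0.49, edgeR). mt-Co2 had 325, 241, 199 and 197 CPM in HIE and 363, 287, 310.5 and 355 CPM in controls, with overlap, which gave -0.47 on the log2 scale (SE 0.19, edgeR adjusted p = 0.45), or -0.31 with its copies added. mt-Co1, the most abundant, had 9084, 7934, 7700.1 and 7099 CPM against 10710.1, 7415, 10369 and 7214 CPM, where the high controls were the P4H animals. Its log2 fold change was -0.19 (SE 0.18, adjusted p = 0.81, edgeR).

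No member passed the edgeR test between P14 HIE and controls, nor did any of the 21678 genes tested (0%). At an unadjusted p under 0.05 there were 4 members (Ndufa4l2, mt-Co2, mt-Atp8 and mt-Nd5) and 2017 genes (9.3%), while DESeq2 called 0 members among 239 genes (1.1%). Of all members, Ndufa4l2 was higher in every HIE animal (3.31% of genes with at least 1 CPM were) and mt-Nd5 was lower (2.79%). The median over nuclear members turned from 0.02 to -0.13 when limma voom weighted the libraries by quality. The 13 mitochondrial genes are processed from long shared transcripts, so they are not independent of each other.

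Hypoxia and control animals on P14 also did not differ in any member by the edgeR test (0 of 21678 genes, 0%). At an unadjusted p under 0.05 there were 6 members (Ndufa4l2 on the positive side, and Uqcr11, mt-Nd2, mt-Co2, mt-Nd4 and mt-Nd5 on the negative side) and 2143 genes (9.89%), while DESeq2 called 0 members among 127 genes (0.586%). The medians were -0.11 over nuclear, -0.26 over mitochondrial members and -0.02 over all genes. Atp5mc1, a gene for the rotating c ring of ATP synthase, had 26.3, 28.6, 27.4 and 29.3 CPM in hypoxia and 44.7, 36.9, 39.8 and 31.2 CPM in controls, the only member lower in every hypoxia animal (2.72% of genes with at least 1 CPM were). Its log2 fold change was -0.48 (SE 0.26, adjusted p = 0.58, edgeR). All hypoxia animals carry the P6H prefix, and among P6H animals alone the medians were 0.05 over nuclear and -0.025 over mitochondrial members.

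Between P14 HIE and hypoxia, the edgeR test likewise called 0 of 21678 genes (0%). Only 1 member, Cox7b, had an unadjusted p under 0.05, beside 1252 genes (5.78%), and DESeq2 called 0 members among 22 genes (0.101%). Cox7b, a small subunit of complex IV, had 47.5, 35.6, 43.0 and 55.4 CPM in HIE and 31.8, 38.1, 21.9 and 37.0 CPM in hypoxia, with overlap (log2 fold change 0.50, SE 0.19, adjusted p = 0.85, edgeR). Nuclear members had a median of 0.11 and mitochondrial members of -0.02. The nuclear median was -0.0062 without P14 HIE animal 1, 0.029 without hypoxia animal 3 and 0.050 without P14 HIE animal 2, and it was -0.022 with limma voom and 0.052 with library size as the only scaling. Among P6H animals alone the nuclear median was -0.18.

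The nuclear genes separated the P14 animals by name prefix rather than by treatment. The mean log2 CPM over the nuclear members was 5.10 and 4.93 in P4H HIE and 4.88 and 4.92 in P4H control animals, and 4.50 and 4.51 in P6H HIE, 4.65 and 4.53 in P6H control and 4.65, 4.77, 4.45 and 4.83 in hypoxia animals, which are all P6H. No P6H animal reached the P4H range. The comparison of the prefixes, with the group as a second term and 4 animals on each side, was added after this was seen and is therefore a description of these animals. The full name prefixes were P4H1 and P6H12 in HIE and P4H4 and P6H8 in controls, each on 2 animals. Animals that share a full prefix may not be independent, and the test does not take this into account. Cox8a, the small subunit VIII of complex IV, had 109.5 and 89.0 CPM in P4H HIE and 97.9 and 107 CPM in P4H control animals, and 50.3 and 53.7 CPM in P6H HIE, 65.7 and 64.4 CPM in P6H control and 53.1 to 72.4 CPM in hypoxia animals. Cox6a1, the common isoform of subunit VIa, had 85.1, 64.2, 73.2 and 84.0 CPM in the P4H animals and 40.5, 44.3, 54.8 and 48.3 CPM in the P6H animals of the same groups. Cox4i1 had 182, 175, 154 and 163 CPM against 116, 118, 128 and 122 CPM. In each of these the prefixes did not overlap, in HIE or in controls.

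Of the 104 members, 12 passed the edgeR quasi-likelihood test as higher in P4H. Of the 21537 genes tested, 140 were called (0.65%), and 89 of these were higher in P4H (0.413% of the genes tested). DESeq2 called 70 members in this comparison, beside 12.8% of genes. All 12 were nuclear. Of these, 7 belong to complex IV, 2 to complex I (Ndufb9 and Ndufb11), 1 to complex III (Uqcrh) and 2 to complex V (Atp5mf and Atp5mj, small subunits of the membrane part). The largest differences were 0.79 on the log2 scale (SE 0.095, adjusted p = 0.049) for Cox8a and 0.71 (SE 0.11, adjusted p = 0.049) for Cox6a1, and the smallest were 0.47 (SE 0.075, adjusted p = 0.049) for Cox4i1 and 0.46 for Cox7a2l. Ndufa4 (0.64), Cox5b (0.60) and Cox6b1 (0.57), all of complex IV, lay between. The 12 values stood just under the threshold together: leaving out 1 animal gave 0 members called in 6 of 8 cases, 21 without P14 HIE animal 2 (beside 1.85% of genes) and 62 without P14 control animal 2 (beside 11.7%).

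In direction, the shift ran through nearly the whole set. Nuclear members had a median log2 difference of 0.40 with 90 of 91 positive, and mitochondrial members 0.33 with 13 of 13 positive, beside 0.01 over all genes. An unadjusted p under 0.05 was reached by 78 nuclear and 6 mitochondrial members, beside 26.7% of all genes. Only 1 of the 8 assembly factors was among them. Every P4H animal was above every P6H animal of the HIE and control groups in 71 of 91 nuclear members and in 2 of 13 mitochondrial members (mt-Co1 and mt-Cytb), beside 9.37% of genes with at least 1 CPM. With the hypoxia animals included these counts were 37 and 0, beside 1.93%. By complex the median was 0.51 for complex IV, 0.45 for complex III, 0.41 for complex V, 0.40 for complex I, 0.31 for complex II and 0.19 for the assembly factors. Ndufa4l2, with -0.03, was the exception among nuclear members.

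Other measures moved with the prefix in the HIE and control animals. The sum of 3 nuclear-retained RNAs (Malat1, Neat1 and Kcnq1ot1) was 6498 to 10169.5 CPM in P4H and 9507 to 13225 CPM in P6H animals, with overlap. Each of the 3 had an unadjusted p under 0.05 in the direction opposite to the members. Endothelial markers (7 of 7) and astrocyte markers (4 of 7) had unadjusted p-values under 0.05 on the P4H side, with sums of 669 to 1082 against 431 to 666 CPM and of 2266 to 3496 against 1338 to 2372 CPM. The astrocyte sums overlapped. With the hypoxia animals included, the endothelial sums of P6H animals were 431 to 1088 CPM and overlapped those of P4H as well. Microglial sums overlapped (20539 to 29990 against 17474 to 24536 CPM), with 3 of 10 markers on the P4H side at that p. Erythroid markers had a median difference of 1.78 with 4 of 6 at that p, and sums of 161 to 1589 CPM in P4H against 93.1 to 274 CPM in P6H animals, with overlap. Some other metabolic genes moved the same way: 18 of 26 genes of the citric acid cycle and pyruvate dehydrogenase (median 0.26) and 10 of 14 electron carriers and transporters (median 0.29) had an unadjusted p under 0.05 on the P4H side. In the remaining lists these were 11 of 46 assembly factors (median 0.19), 2 of 26 genes of mitochondrial transcription and replication (median 0.04) and 1 of 14 regulators of biogenesis (median -0.045). Another 1 of these regulators was on the P6H side. Of all genes, 26.7% had such a p in either direction. The part of RNA content and of other cells in the shift was not tested.

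**Figure D4:**
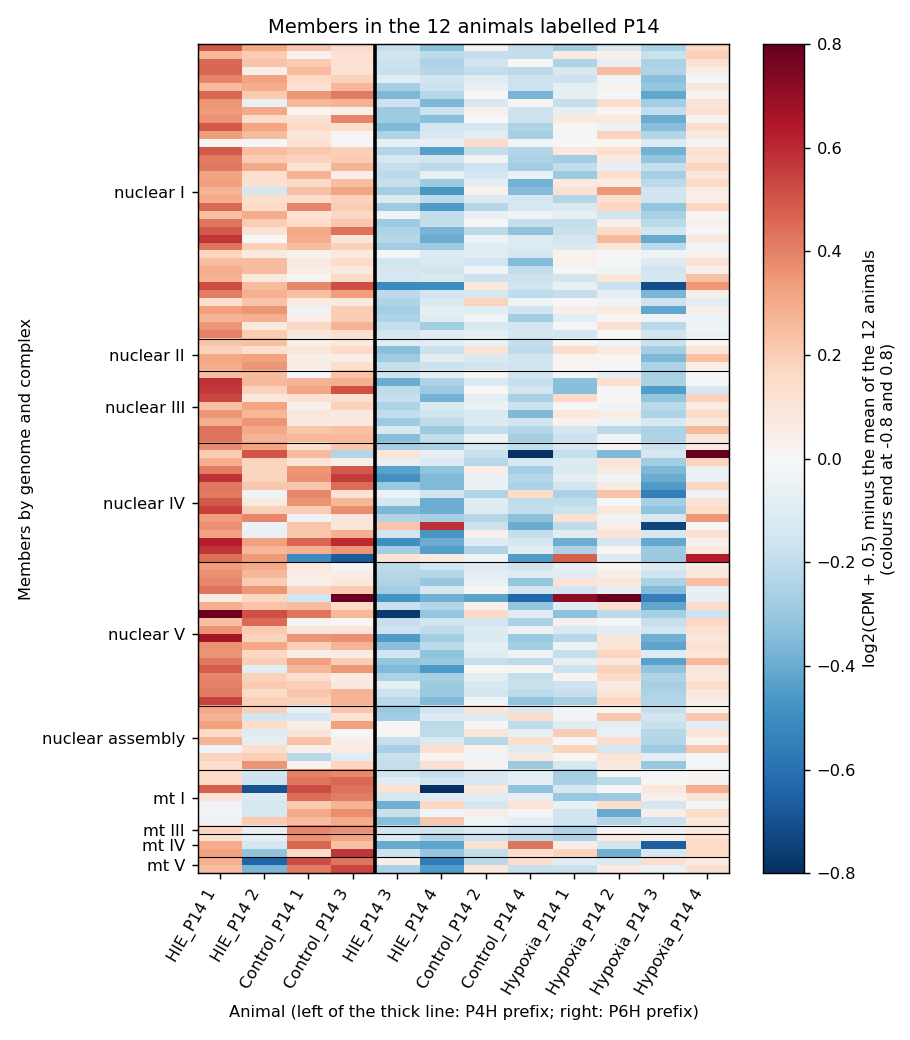
Heat map of the members (rows, ordered by complex) in the 12 animals of P14 (columns): colour is log2(CPM + 0.5) minus the mean of the 12 animals, with P4H animals left of the thick line and P6H animals right of it. Most nuclear rows are above their mean in the 4 P4H animals, and 71 of 91 nuclear members show no overlap between these and the 4 P6H animals of HIE and control.

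Promoters of the nuclear members were searched for the binding motifs of factors known to drive respiratory genes: the core of the NRF1 motif (GCATGCGC, and with 1 free base GCANGCGC), ETS factors such as GABP (CCGGAAG) and YY1 (AAGATGGC). Windows from 250 bases before to 50 bases after the start, from RefSeq on GRCm38.p6, were found for 73 of the 91 genes. The strict NRF1 core was in 12 of 73 (16.4%) against 2.8% of 27025 windows, the core with 1 free base, which includes the strict one, in 26 (35.6%) against 9.87%, the ETS motif in 17 (23.3%) against 9.12%, and the YY1 motif in 10 (13.7%) against 2.88%, on either strand. At least 1 of the last 3 was in 44 of 73 members (60.3%) and in 19.3% of all windows. Of the 12 members called between the prefixes, 9 had a window and 5 of these held at least 1 motif. The 100 bases before the start are shown for Cox6a1 (chr5:115348959-115349058), Cox6b1 (chr7:30626115-30626214) and Uqcrh (chr4:116075071-116075170), which were called between the prefixes and hold the ETS motif, here as CTTCCGG, and for Atp5me (chr5:108434400-108434499), which differed most between the days and holds the strict NRF1 core, here as GCGCATGC. All lie on the minus strand of GRCm38.p6, and the capitals mark the motif. A match is a description of the letters only.
Cox6a1: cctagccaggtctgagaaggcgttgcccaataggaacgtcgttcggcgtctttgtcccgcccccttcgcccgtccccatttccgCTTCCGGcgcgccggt
Cox6b1: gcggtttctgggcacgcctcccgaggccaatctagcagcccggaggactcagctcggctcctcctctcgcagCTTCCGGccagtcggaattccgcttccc
Uqcrh: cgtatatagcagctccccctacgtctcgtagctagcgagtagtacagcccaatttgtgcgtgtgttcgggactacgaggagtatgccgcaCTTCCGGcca
Atp5me: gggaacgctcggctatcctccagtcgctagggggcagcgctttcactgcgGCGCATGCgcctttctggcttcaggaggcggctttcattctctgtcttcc

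Between the early and the P14 animals many members differed, mostly toward lower levels on P14, while 2 small subunits of complex V differed strongly the other way. As day and count table cannot be told apart, these are differences between the sets of animals. In controls 43 of 104 members passed the edgeR test, beside 48.1% of 24503 genes (22% higher and 26% lower). Of nuclear members 6 were higher and 33 lower on P14, and of mitochondrial genes 1 was higher and 3 were lower. In HIE animals 40 members passed, beside 35.6% of genes (18.7% higher and 17% lower). Of nuclear members 9 were higher and 25 lower, and of mitochondrial genes 2 were higher and 4 lower. In the latter contrast limma voom called 62 members, beside 50.6% of genes. The shares of members, 41.3% and 38.5%, were thus near those of all genes. The medians were -0.28 over nuclear and -0.48 over mitochondrial members in controls, beside -0.04 over all genes, and -0.18 and 0.00 in HIE animals, beside 0.04. Without early control 4 the mitochondrial median in controls was 0.10, and without the P6H63 controls it was -0.89 with 8 mitochondrial genes called lower. In that last setting 35.6% of members were called, beside 35.5% of all genes. Called in both were 30 nuclear members (24 lower, 6 higher) and 4 mitochondrial genes. The share of all genes called in both was not counted, so these numbers do not set the members apart from other genes.

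The nuclear members lower in both came from all 5 complexes. They include Ndufb4 and Ndufa12, whose counts were split with retrocopies. Uqcrq, a small subunit of complex III, had 28.1 to 35.2 CPM in the 8 early animals and 10.5 to 18.3 CPM in the 12 P14 animals. Its log2 fold change was -1.20 (SE 0.16, adjusted p = 1.69e-05, edgeR) in controls and -1.13 (SE 0.16, adjusted p = 3.27e-05, edgeR) in HIE animals. Atp5f1b had 456 to 565 CPM early and 307 to 465 CPM on P14, with log2 fold changes of -0.50 and -0.44. Uqcrc1, a core subunit of complex III, had -0.44 and -0.52. Cox6b2 had the most negative change in controls (-2.32, SE 0.36, adjusted p = 6.99e-05, edgeR), where controls 1 and 2 were high, and -1.31 in HIE animals. Ndufa4l2 and Cox4i2 were called only in controls, with -1.78 and -1.44 against 0.06 and -0.01 in HIE animals, but the difference between the contrasts did not pass (edgeR adjusted p = 0.082 and 0.28). For Cox4i2 the call was lost without the P6H63 controls (-0.69). Sdha, the catalytic subunit of complex II (-0.02 and -0.03), did not pass in either.

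The nuclear members higher in both were Atp5me, Atp5f1e, Ndufa13, Ndufa5, Ndufaf7 and Uqcrh. Atp5me, a small membrane subunit of ATP synthase, had 2.09 to 2.91 CPM in 7 early animals, 8.18 CPM in early control 4 and 13.3 to 29.4 CPM in the P14 animals. Its log2 fold change was 2.37 (SE 0.36, adjusted p = 6.29e-05, edgeR) in controls and 2.99 (SE 0.37, adjusted p = 8.51e-06, edgeR) in HIE animals. Atp5f1e, the epsilon subunit of its rotor, had 1.72 to 2.26 CPM, 5.96 CPM in early control 4, and 6.82 to 20.6 CPM on P14, with 1.95 and 2.23. Ndufa13, a subunit of complex I also known as GRIM-19, had 11.8 to 16.8 CPM, 38.1 CPM in early control 4, and 34.6 to 57.7 CPM on P14, with 1.08 and 1.88. The call of Ndufa5 in controls was lost without the P6H63 controls (0.60). For Atp5me, Atp5f1e and Ndufa13, early control 4 lay between the other early animals and most P14 animals or within the latter.

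Atp5me and Atp5f1e have annotated transcripts of 371 and 429 bases, and the other members higher in both have 879 to 2212 bases. Of the nuclear members under 500 bases, the other two did not move alike: Ndufa1, an accessory subunit of complex I, had 0.09 and 0.37, and Uqcr10, a small subunit of complex III, -0.48 and -0.33. Log2 transcript length and log2 fold change were correlated across the 91 nuclear members, which are not independent replicates. The Pearson correlation was -0.063 (Spearman -0.011) in controls and -0.13 (Spearman -0.019) in HIE animals. The 4 nuclear members under 500 bases had a median of 1.02 in controls and a higher one in HIE animals. The 87 longer ones had -0.29 and -0.18. With the short mitochondrial genes mt-Atp8, mt-Nd3 and mt-Nd4l, the 7 members under 500 bases had medians of 1.18 and 1.265. The 97 longer members had -0.31 and -0.20. Both medians of the 7 are the values of mt-Nd3, which depended on the split of counts with its copy. Abundant non-coding RNAs were also higher on P14: Rn7sk had 4669 to 22281 CPM early and 28469.6 to 52081 CPM on P14, and mt-Rnr2, the large mitochondrial ribosomal RNA, had 206 to 1198 CPM early and 19447 to 35588 CPM on P14. The part of transcript length and of the library preparation in these values was not tested.

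**Figure D5:**
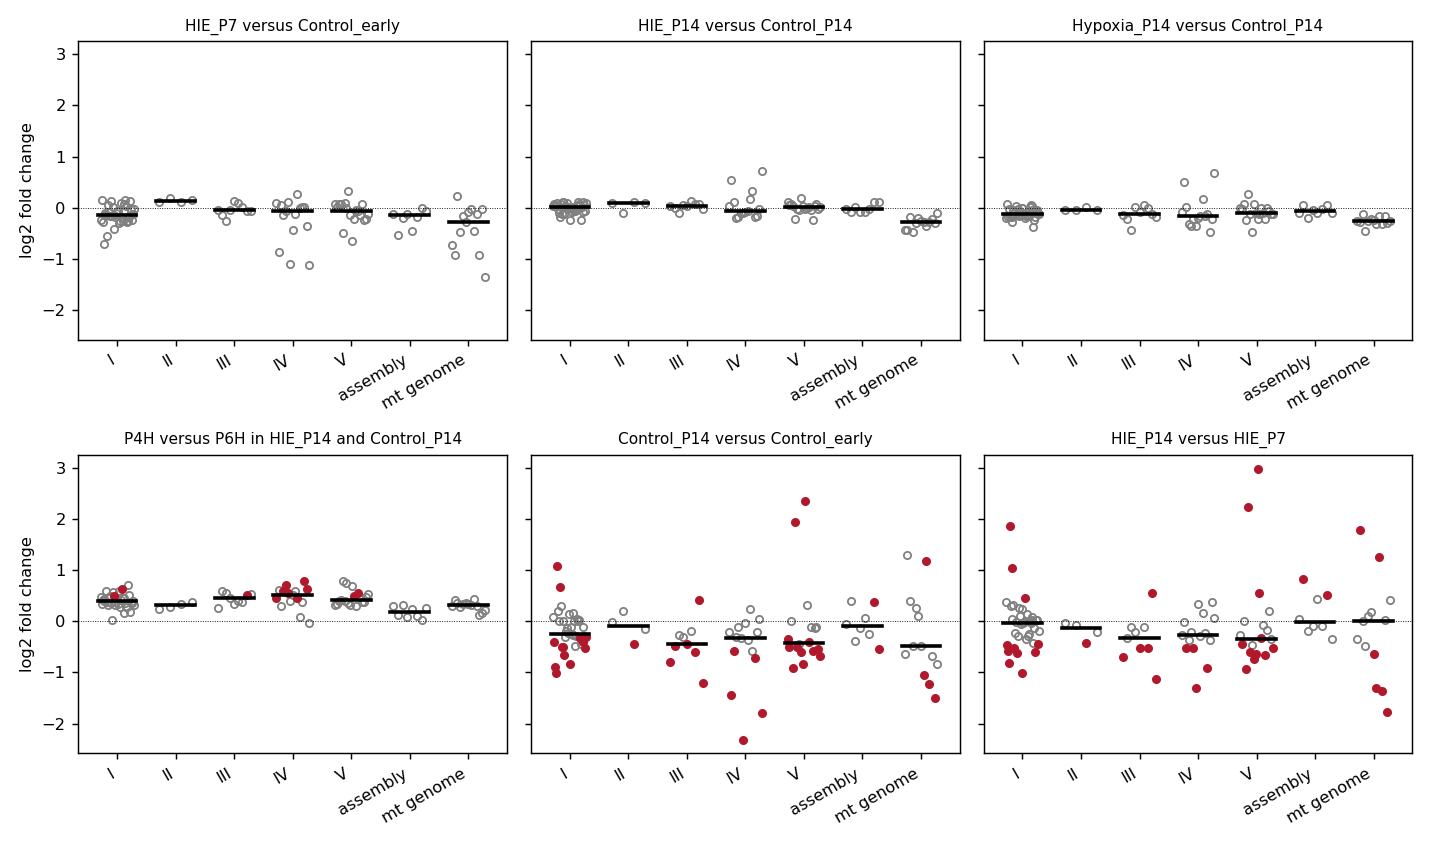
Log2 fold change of each member by complex and genome in 6 comparisons; filled red points passed an adjusted p of 0.05 in the edgeR test, and lines are medians. Red points are absent in the treatment comparisons and number 43 (controls) and 40 (HIE) between the early and the P14 animals.

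Among the mitochondrial genes those with the smallest adjusted p-values between the days belong to complex I. The genes mt-Nd5, mt-Nd4 and mt-Nd2 were lower on P14 in both contrasts. mt-Nd5 had 1207, 1479.8, 1335 and 1118 CPM in P7 HIE and 991, 1067, 1173 and 1956 CPM in early controls, against 304 to 519.9 CPM in all P14 animals, with log2 fold changes of -1.50 (SE 0.19, adjusted p = 9.25e-06, edgeR) in controls and -1.76 (SE 0.19, adjusted p = 1.70e-06, edgeR) in HIE animals. mt-Nd4 had 1403 to 2199 CPM against 533 to 895 CPM, with -1.22 and -1.36, and mt-Nd2 had 356 to 1043 CPM against 198 to 326 CPM, with -1.05 and -1.3. In none of them did the early and P14 animals overlap, but how many of all genes also lacked overlap was not counted. The core subunits of complexes III and IV did not pass in either contrast: mt-Cytb had 0.10 and 0.19, mt-Co1 0.40 and 0.00, and mt-Co3 0.26 and 0.11. mt-Co2 had -0.48 in both, which became 0.42 and 0.16 with its copies added. Of the remaining genes, mt-Nd4l had -0.68 and 0.022, mt-Nd6 -0.83 and 0.41 and mt-Atp6 -0.64 and -0.34, none of which passed as deposited, and with copies added mt-Nd4l passed in controls (edgeR adjusted p = 0.017). mt-Nd1, another subunit of complex I, had -0.47 (adjusted p = 0.064, edgeR) and -0.64 (adjusted p = 0.021, edgeR), a call that was lost without P7 HIE animal 3 or P14 HIE animal 3 or 4.

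Of the mitochondrial genes 5 of 13 had positive values in controls and 7 of 13 in HIE animals, and mt-Nd3 and mt-Atp8 were those called as higher, the former in both contrasts and the latter in HIE animals. For mt-Nd3 this depended on the split of counts with its copy. mt-Nd3 had 61.2, 63.4, 159 and 112 CPM in P7 HIE and 363, 160.3, 284 and 143 CPM in P14 HIE, which gave 1.26 on the log2 scale (SE 0.38, edgeR adjusted p = 0.014). Without P14 HIE animal 1 it was 0.98 and did not pass. With the copy added it had 414, 426, 411 and 395 CPM against 402, 226, 333 and 198 CPM, which turned the log2 fold change to -0.51 (adjusted p = 0.054, edgeR). In controls the call was lost without the P6H63 controls (0.74), and with the copy added the value went from 1.18 (adjusted p = 0.016, edgeR) to 0.05 (adjusted p = 0.85, edgeR). mt-Atp8, a short subunit of complex V with no such copy counted, had 52.4, 73.3, 44.6 and 26.4 CPM in P7 HIE and 229, 149.6, 161 and 142 CPM in P14 HIE, which gave 1.79 on the log2 scale (SE 0.60, edgeR adjusted p = 0.025). This call was lost without P7 HIE animal 1, 3 or 4 or P14 HIE animal 1. In early controls it had 25.5, 25.6 and 31.4 CPM and 286 CPM in animal 4, above the 171 to 279.9 CPM of the P14 controls, and the change in controls was 1.31 (adjusted p = 0.073, edgeR).

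Whether the HIE difference itself changed between the days was tested as an interaction, in which no gene of 24503 passed the edgeR test (0%). At an unadjusted p under 0.05 there were 3529 genes (14.4%), and DESeq2 called 701 genes (2.86%), among which 1 was a member. This was Ndufa4l2, with an early minus P14 difference of -1.84 (adjusted p = 0.082 with edgeR and 0.0084 with DESeq2). By limma voom 4 members passed, beside 23.5% of genes. The early part of this value rests on the high levels in early controls 1 and 2.

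Other genes of mitochondrial energy metabolism were read from lists. In the 3 comparisons with controls on the same or nearest day, 0 passed the edgeR test among 14 regulators of mitochondrial biogenesis, 26 genes of mitochondrial transcription and replication, 46 or 47 assembly factors, 26 genes of the citric acid cycle and pyruvate dehydrogenase, and 14 electron carriers and transporters. Of all genes, 0.0666% passed between P7 HIE and early controls and 0% in both comparisons on P14. These counts therefore do not set the lists apart from other genes. Ppargc1a, the coactivator that drives mitochondrial biogenesis, had 6.06 ± 0.83 CPM (SD, n = 4) in P7 HIE and 13.6 ± 5.79 CPM in early controls, which gave -1.18 on the log2 scale (SE 0.30, edgeR adjusted p = 0.15). Nrf1 (0.21) and Tfam (-0.13), the transcription factor of respiratory genes and the packaging factor of mitochondrial DNA, did not pass either. Cs, the citrate synthase of the citric acid cycle, had 167 ± 2.19 and 163 ± 18.3 CPM in the early groups and 111 ± 16.8, 107 ± 11.9 and 106 ± 7.66 CPM in HIE, control and hypoxia on P14. Between the early and P14 values, day and count table cannot be told apart. Cycs, the cytochrome c that carries electrons to complex IV, had 39.2 to 45.8 CPM as group means and passed in no comparison.

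Between the days 22% of all genes were higher and 26% lower in controls, and 18.7% higher and 17% lower in HIE animals. Against this, the citric acid cycle list had 1 gene higher and 12 lower in controls, and 0 higher and 10 lower in HIE animals, of 26. Its lower genes included Cs (-0.61 and -0.59), Mdh2, the mitochondrial malate dehydrogenase (-0.89 and -0.78), and Ogdh, of the oxoglutarate dehydrogenase complex (-0.64 and -0.61). Electron carriers and transporters had 1 higher and 5 lower, and 1 higher and 6 lower, of 14. Among them were Vdac1, the outer membrane channel (-0.93 and -0.93), and Ckmt1, the mitochondrial creatine kinase (1.94 and 1.44). Regulators of biogenesis had 2 higher and 6 lower, and 0 higher and 3 lower, of 14, with Pprc1 (-0.56 and -0.90) and Gabpb1 (-0.34 and -0.75) lower in both. Transcription and replication genes had 5 higher and 4 lower, and 2 higher and 3 lower, of 26, with Lrpprc, which stabilises mitochondrial mRNAs (0.52 and 0.31), higher in both and its partner Slirp (-0.53 and -0.65) lower in both. Assembly factors had 3 higher and 7 lower, and 7 higher and 8 lower, of 47, among them Cox10 (-0.70 and -0.54), an enzyme of heme A synthesis.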

How the data were processed

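RNA of CD11b+ cells was sequenced from 20 animals after removal of ribosomal RNA with a stranded total RNA kit. Per the study's methods and the submitters' processing notes, reads were mapped to GRCm39 with STAR and counted with RSEM, by which a read with several possible genes is shared out among them. The annotation release is not given in the sources used here. The authors deposited the expected counts per gene, without scaling, in 1 table for the early and 1 for the P14 animals. The annotation of GENCODE M39 gave symbols, classes and lengths for 56017 of 56691 genes. Columns of the authors' own comparisons were not used, and 0 columns of values lacked a sample.

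Counts were rounded to whole numbers and summed per animal. Tests used edgeR 4.0.16 (quasi-likelihood F test, TMM scaling, filterByExpr) with Benjamini-Hochberg adjustment over all genes tested at 0.05. The 8 early animals, the 12 P14 animals, and all 20 for contrasts between days and the interaction each shared 1 fit. DESeq2 1.42.0 and limma 3.58.1 (voom with quality weights) were alternatives, beside other scalings, no filter on low counts, and leaving out each animal. The code was tested on simulated data. CPM were computed from TMM-scaled library sizes, and levels per kilobase from annotated transcript lengths. A prior count of 2 was used for log2 CPM. Copies were sequences found by blastn 2.17.0 with at least 95% identity over at least 100 bases and 20% of the transcript.

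Members and lists were chosen with earlier results of these data known. The genes named were the mitochondrial genes, members past the threshold (the 5 highest and 5 lowest where over 10), the 3 highest and lowest fold changes per comparison, the most abundant nuclear member per complex, the isoform genes, and listed pathway genes that passed. Sdhb, Ndufs1, Ndufb10, Uqcrc1, Uqcr11 and Atp5mj were also named after their values were seen where these rules do not reach them. Intervals and tests cover the spread between animals only.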

Additional observations from a re-analysis of the deposited data

Results flagged for a closer look

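In 37 measures and 5 groups of 4 animals, 1 animal lay far from the other 3 by Dixon's test at its 95% critical value in 14 of 185 cases, where chance alone would give about 5%. Early control 4 accounted for 7 of the 14. It had 1043 CPM of mt-Nd2 against 356 to 473 CPM in the other early controls, 126 CPM of mt-Nd4l against 29.3 to 38.4, 359.9 CPM of mt-Nd6 against 50.4 to 59.8, 861 CPM of mt-Co2 against 291 to 366 and 286 CPM of mt-Atp8 against 25.5 to 31.4. Its mitochondrial share of counts was 2.20% against 1.62 to 1.65%, and 2.98% against 2.17 to 2.28% with copies added. All 7 measures are mitochondrial and all lay on the high side.

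P14 HIE animal 1 had 1055 CPM of mt-Nd1 against 831 to 857 CPM, 708 CPM of mt-Nd4 against 598 to 613 CPM, and a mean log2 CPM over the mitochondrial genes of 8.85 against 8.44 to 8.51. In P14 hypoxia, animal 1 was low in mt-Nd1 (789 CPM against 941 to 957) and in the mitochondrial share of counts (1.16% against 1.47 to 1.51%), animal 4 was high in Cox4i2 (2.72 CPM against 0.798 to 1.01), and animal 3 was low in Cox6a1 (43.0 CPM against 53.8 to 55.3).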

How the results depend on the processing

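No paired analysis was possible because the replicate numbers only name animals in accession order. Counts of members called moved as follows: between P7 HIE and early controls from 0 to 3 with DESeq2 (13.4% of all genes called) and 38 without the P6H55 controls (58.5%); between HIE on P14 and P7 from 40 to 62 with limma voom (50.6%); in the interaction from 0 to 1 with DESeq2 (2.86%), 4 with limma voom (23.5%) and 7 without the P6H55 controls (30.1%); and between P4H and P6H from 12 to 70 with DESeq2 (12.8%) and 67 with no filter on low counts (8.99%). Leaving out 1 animal gave 0 to 5 between P7 HIE and early controls, 0 to 1 in the interaction and 0 to 62 between P4H and P6H. With library size as the only scaling, the nuclear median was -0.29 between P7 HIE and early controls, where the median of all genes moved to -0.28 as well, and -0.46 between the controls of P14 and early. Among P6H animals the mitochondrial median was -0.025 between hypoxia and controls and the nuclear median -0.18 between HIE and hypoxia. The mitochondrial median between P14 and early controls was -0.63 to 0.10 when 1 animal was left out, the highest without early control 4, 0.23 without the P6H55 controls and -0.89 without the P6H63 controls, and between HIE on P14 and P7 -0.47 with copies added. That step turned mt-Nd3 in the latter to -0.51. With protein-coding genes as the denominator, the mitochondrial share was 1.56% in P14 HIE, 1.89% in P14 controls and 1.66% in hypoxia. Apart from copies, where the shared counts are seen directly, the cause was not tested. Of the values for whole comparisons, counts stayed within 1.5 times and other values within 1 SD between animals in 119 of 136 cases when a choice other than an animal was changed and in 204 of 216 when an animal was left out. The named genes kept direction and call in 193 of 198 and 168 of 176 cases. Libraries held 29751540 to 83469067 counts, and how depth affects the calls was not tested.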
